A study of Sus scrofa with 12 samples.

Results

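The AP-1 family of transcription factors was followed in cultured pig muscle cells at 2 stages, in 2 arms labelled WT and CBP. The members were the FOS subfamily (FOS, FOSB), the FOSL subfamily (FOSL1, FOSL2), the JUN subfamily (JUN, JUNB, JUND) and the related factors ATF3 and BATF3, chosen by symbol. Of these 9 genes, 7 carried their symbol in the expression table and JUN was found by its identifier. JUND had no match and is not analysed here, so 8 of the 31908 genes in the table were described. All 8 passed the filter of the test (1 FPKM or more in at least 3 of 12 libraries), as did 11636 genes in all. FOS and FOSB passed only through the 6 libraries at 60h, where they are high, and BATF3 reached 1 FPKM in 5 libraries. FPKM is the number of reads of a gene relative to its counted length and to the total reads of the library.

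RNA-seq was made from muscle satellite cells, the stem cells from which muscle fibres grow and regenerate, in 4 groups of 3 libraries. WT and CBP cells at 0h are labelled as proliferating, and WT and CBP cells at 60h as differentiating. Here the CBP arm is taken to be cells exposed to SGC-CBP30, a bromodomain inhibitor of CBP and its relative p300, because the protocol names it at 5 uM per ml, for 48 h in proliferation and 60 h in differentiation. That text stands on every sample, controls included, and the arms are given as genotypes, so the labels do not settle whether CBP is a compound or a genetic change. What the WT cells received, and whether the CBP cells at 60h had met the compound before differentiation, is not given in the sources used here. The labels give all groups 1 cell line name, C3H, usually a mouse name, and 1 serum-containing growth medium, with no differentiation medium. They do not say whether the replicates were separate cultures, so the p-values measure the spread between these libraries, which may be technical.

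AP-1 is a pair of basic leucine zipper proteins that binds DNA through both partners. FOS and FOSL proteins need a JUN partner, whereas JUN proteins can also pair with each other. ATF3 and BATF3 can each form a pair with a JUN protein. FOS, FOSB, JUN and JUNB are classic immediate early genes, switched on within minutes by growth factors and stress through MAP kinases, and FOSL1 and FOSL2 usually follow later and last longer. In muscle cells, JUN and FOS are known as growth-linked factors that can hold back the activity of MYOD1, and CBP and p300 are coactivators of both AP-1 and MYOD1.

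The libraries held 16095335 to 19155240 reads. Markers of the labelled cell type were present: PAX7, the marker of satellite cells, stood at 14.4 FPKM in WT at 0h and at 7.57 to 12.3 FPKM in the other 3 groups, and MYF5 at 87.4 to 136 FPKM. MYOG, which marks myoblasts that have begun to differentiate, stood at 343 FPKM in WT and 28.5 in CBP already at 0h, and at 589 in WT and 448 in CBP at 60h, so the WT cells labelled as proliferating expressed a differentiation gene. The summed level of the 12 matched satellite cell and myoblast markers ran from 1883 to 1902 FPKM in WT and from 745 to 790 in CBP at 0h, and from 1876 to 2022 in WT and 1383 to 1490 in CBP at 60h. Of the 10 tested, 1 was higher and 8 lower in CBP at 0h, and 6 were higher and 4 lower at 60h. The sum at 60h follows its most abundant genes, such as DES (831 in WT and 342 FPKM in CBP), while PAX7 and MYF5 were higher in CBP. Of the 8 immune markers 2 passed the filter, CD68 and CD14. CD68 stood at 3.99 FPKM in WT and 4.38 in CBP at 0h, and at 1.36 and 2.65 at 60h. CD14 stood at 1.63 FPKM in WT and 1.96 in CBP at 0h, and at 2.31 and 0.928 at 60h. CD3E was at 0 in all 12 libraries and the pan-leukocyte marker PTPRC at or near 0. Of the 8 endothelial markers 1 passed. All 10 fibroblast markers passed, and their sum was 1134 to 1169 FPKM in WT and 597 to 616 in CBP at 0h, against 3847 to 4010 in WT and 2582 to 2829 in CBP at 60h. Of these 10, 1 was higher and 7 lower in CBP at 0h, and 3 were higher and 5 lower at 60h. COL1A1 carried most of the sum at 60h (2854 in WT and 1551 FPKM in CBP), while PDGFRA, a surface marker of fibro-adipogenic cells, was higher in CBP (20.8 against 10.3 FPKM). The part of this fibroblast signal in the AP-1 results was not tested. In bulk RNA, fewer cells of a type and less RNA per cell cannot be told apart.

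Levels of the members spanned more than 2 orders of magnitude, and their order changed with stage. In WT cells at 0h, FOSL2 led at 88.4 ± 3.57 FPKM (SD, n = 3, as for all means here), followed by FOSL1 (35.1 ± 2.54), JUNB (10.9 ± 1.23), JUN (7.41 ± 0.953) and ATF3 (6.68 ± 0.246). FOS, BATF3 and FOSB lay under 1 FPKM on average. JUN and ATF3 overlapped in range, as did FOS and BATF3. CBP cells at 0h kept the order of the first 5, with FOSL2 at 66.8 ± 2.45 and FOSL1 close behind at 55.8 ± 2.43 FPKM and no overlap between them. At 60h JUNB led in both arms, at 120 ± 7.82 FPKM in WT and 109 ± 5.07 in CBP, ahead of FOSL2. FOSL1 came next in WT (22.4 ± 1.77 FPKM) and FOS in CBP (17.1 ± 0.879 FPKM). Within the 60h order, ATF3 and FOS overlapped in WT, and FOSL1 and ATF3 overlapped in CBP. The order between genes depends on their counted lengths, such as 1044 bp for JUNB and 2470 bp for FOSL2. In reads not divided by length, FOSL2 was ahead of JUNB at 60h. Over 3 libraries it had 8185 reads against 6901 in WT and 8610 against 6447 in CBP.

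**Figure D1:**
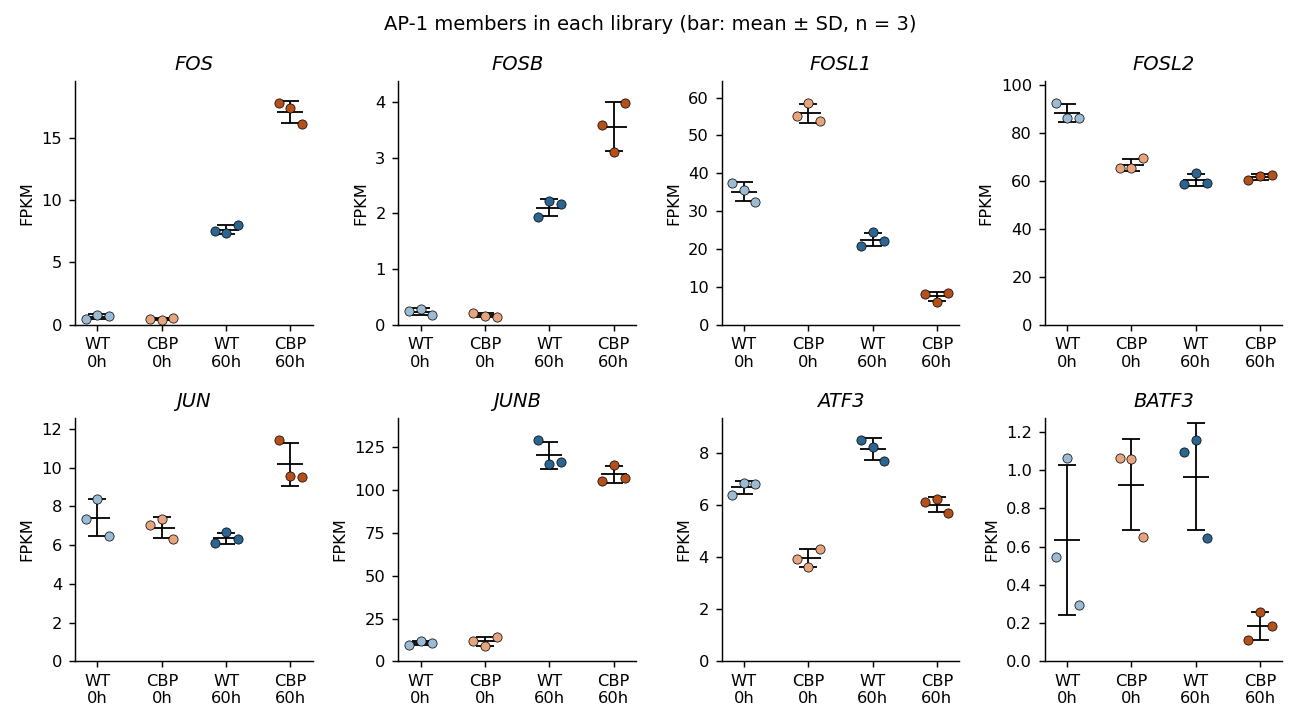
FPKM of each of the 8 AP-1 members (vertical axes, each from 0) in the 3 libraries of each group, with the group mean and SD as bars. FOS and FOSB are low at 0h and highest in CBP cells at 60h, FOSL1 has its highest level in CBP cells at 0h (55.8 FPKM) and its lowest in CBP cells at 60h (7.47 FPKM), and JUNB separates the stages in both arms.

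Summed over subfamilies, the FOSL pair made up most of the summed FPKM of the 8 members at 0h and the JUN pair most at 60h. FOSL1 and FOSL2 together held 82.3% of the summed FPKM of the 8 members in WT at 0h (80.5% to 84.0% in its libraries) and 83.6% in CBP (82.6% to 85.2%). At 60h they held 36.3% in WT and 32.1% in CBP. JUN and JUNB, without JUND, went from a share of 12.2% to 55.5% in WT and from 12.7% to 55.4% in CBP. The FOS pair stayed the smallest share at 0h (0.587% in WT, 0.420% in CBP) and reached 4.26% in WT and 9.58% in CBP at 60h. The sum over all 8 members was 150 ± 5.55 FPKM in WT and 147 ± 2.39 in CBP at 0h, and 228 ± 5.91 in WT and 215 ± 3.70 in CBP at 60h. These sums are descriptions without a test, and no protein or dimer was measured. The shares depend on the counted lengths of the genes, as the order of the members does. In reads not divided by length, the FOSL pair stayed ahead of the JUN pair at 60h in both arms. Over 3 libraries, FOSL2 and FOSL1 had 8185 and 2116 reads in WT, against 6901 and 665 for JUNB and JUN. In CBP the FOSL genes had 8610 and 726 reads, against 6447 and 1094.

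**Figure D2:**
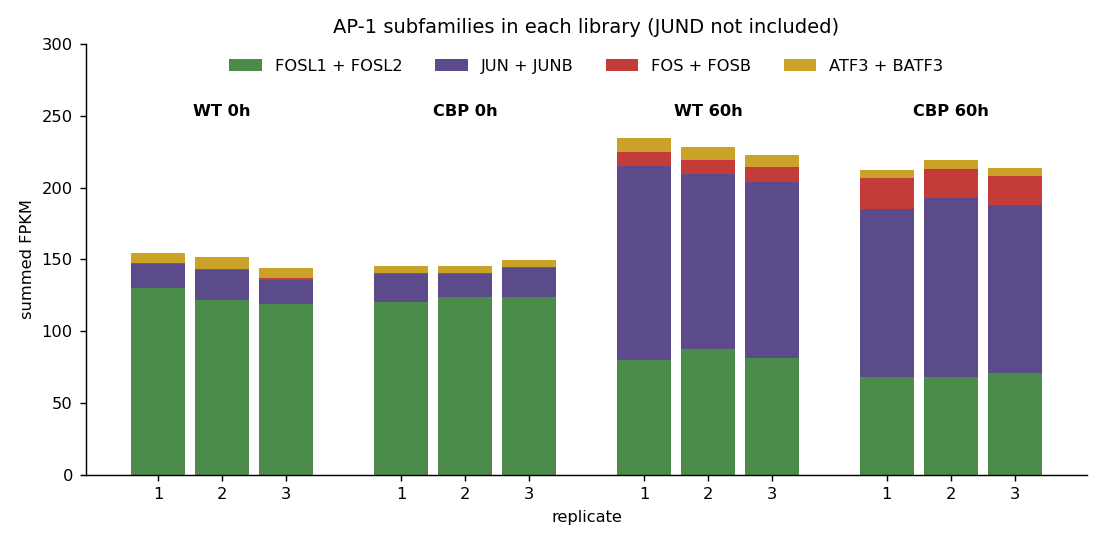
Summed FPKM of the FOSL, JUN, FOS and ATF3 with BATF3 pairs, stacked, in each of the 12 libraries. The FOSL pair fills most of each bar at 0h and the JUN pair most at 60h, and the FOS pair is larger in the 3 CBP libraries at 60h (20.1 to 21.3 FPKM) than in the 3 WT libraries (9.45 to 10.2 FPKM).

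FOS (ENSSSCG00000002383, chromosome 7, 98449508 to 98451971 in the RefSeq table of Sscrofa11.1), the founding partner of JUN in AP-1, was low at 0h and higher in CBP than in WT cells at 60h. Its values at 0h were 0.439, 0.783 and 0.711 FPKM in WT and 0.448, 0.379 and 0.523 FPKM in CBP, from 34 to 70 reads per library. After 60h they were 7.52, 7.31 and 7.996 FPKM in WT and 17.8, 17.4 and 16.1 FPKM in CBP. The arms overlapped at 0h and lay well apart at 60h, where every CBP library was above every WT library. At 60h FOS was 2.24-fold higher in CBP (log2 change 1.07 on the log2(FPKM + 1) scale used for all changes here, SE 0.078, limma adjusted p = 1.34e-07). From 0h to 60h it rose 11.8-fold in WT (log2 change 2.39, SE 0.078, adjusted p = 1.48e-10) and 37.9-fold in CBP (log2 change 3.64, adjusted p = 2.04e-12). FOS entered this fit only through the 60h libraries, so the stage values describe it rather than add support. In the fit with no filter, over 22521 genes, the adjusted p was 6.39e-09 in WT and 1.87e-10 in CBP. At 0h the difference did not pass (log2 change -0.18, SE 0.078, adjusted p = 0.0688). It passed in the direction of a fall with a pseudocount of 0.1 (adjusted p = 0.0397), after median-of-ratios scaling (0.0331) and without WT replicate 1 at 0h (0.00424), within a range of 0.00424 to 0.246 over 18 alternatives. The counted length of FOS was 4871 bp, above its RefSeq span of 2464 bp, so its level relative to other genes depends on that gene model.

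FOSB (ENSSSCG00000031616, chromosome 6, 51836780 to 51844531), a close relative of FOS induced by similar signals, had the same order of groups at lower levels. It stood at 0.254, 0.280 and 0.170 FPKM in WT and 0.206, 0.161 and 0.134 FPKM in CBP at 0h, from 8 to 19 reads. Its 60h values were 1.93, 2.22 and 2.16 FPKM in WT and 3.58, 3.10 and 3.98 FPKM in CBP. Again the arms overlapped at 0h only. FOSB was 1.69-fold higher in CBP at 60h (log2 change 0.55, SE 0.079, adjusted p = 5.26e-05). It rose 8.97-fold with stage in WT (log2 change 1.33) and 21.2-fold in CBP (log2 change 1.96, adjusted p = 4.53e-10). The same limit of the filter holds as for FOS, and with no filter the adjusted p was 2.47e-07 in WT and 8.44e-09 in CBP. At 0h no difference was detectable on these reads (log2 change -0.08, adjusted p = 0.398). Log2 changes of genes this low depend on the pseudocount: the stage change of FOSB was 2.73 in WT and 3.78 in CBP with a pseudocount of 0.1. FOS exceeded FOSB by 1.73-fold to 5.59-fold over the 12 libraries.

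FOSL1 (ENSSSCG00000012967, chromosome 2, 6430158 to 6436173), also named FRA1, a FOS relative without the strong activation domain of FOS, went opposite ways in CBP cells at the 2 stages. At 0h it stood at 37.5, 35.5 and 32.4 FPKM in WT and at 55.0, 58.5 and 53.9 FPKM in CBP. At 60h the values were 20.9, 24.4 and 22.1 FPKM in WT and 7.99, 6.09 and 8.32 FPKM in CBP. No library of one arm fell within the range of the other at either stage. FOSL1 was 1.59-fold higher in CBP at 0h (log2 change 0.65, SE 0.094, adjusted p = 7.53e-05) and 3.004-fold lower at 60h (log2 change -1.48, SE 0.094, adjusted p = 3.56e-08). It fell 1.57-fold with stage in WT (log2 change -0.62, adjusted p = 8.48e-05) and 7.47-fold in CBP (log2 change -2.75, adjusted p = 9.79e-11), and only 21 of the 11636 genes had a lower log2 change in CBP cells.

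FOSL2 (ENSSSCG00000032527, chromosome 3, 110820403 to 110842903), or FRA2, the most abundant member at 0h, moved less. It had 92.5, 86.5 and 86.2 FPKM in WT and 65.4, 65.4 and 69.7 FPKM in CBP at 0h. At 60h it had 58.8, 63.2 and 59.2 FPKM in WT and 60.3, 62.0 and 62.7 FPKM in CBP. The 3 WT libraries at 0h stood above all others and the arms overlapped at 60h. FOSL2 was 1.32-fold lower in CBP at 0h (log2 change -0.40, SE 0.039, adjusted p = 3.04e-06) and fell 1.46-fold with stage in WT (log2 change -0.54, adjusted p = 1.19e-07). At 60h the difference between arms did not pass (log2 change 0.03, SE 0.039, adjusted p = 0.506), but after median-of-ratios scaling it was -0.10 with an adjusted p of 0.0329, within 0.0329 to 0.825 over 18 alternatives. The stage change in CBP was small (log2 change -0.11, SE 0.039, adjusted p = 0.0185). It did not pass after median-of-ratios scaling (adjusted p = 0.318), without CBP replicate 3 at 0h (0.0789) or without CBP replicate 1 at 60h (0.0673), within 0.0109 to 0.318 over 18 alternatives.

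The balance within the FOSL pair therefore differed by arm and stage. FOSL1 made up 27.3% to 29.1% of the pair in WT at 0h and 43.6% to 47.2% in CBP. At 60h its share was 26.2% to 27.8% in WT and 8.95% to 11.7% in CBP. WT cells thus had nearly the same balance at both stages, and the 2 CBP groups lay on opposite sides of it without overlap. FOS, which stood at 0.0186 of the FOSL1 level in WT and 0.00811 in CBP at 0h, reached 0.341 of it in WT and 2.33 times it in CBP at 60h. In the JUN pair, JUNB made up 56.8% to 62.6% in WT and 54.7% to 68.9% in CBP at 0h, ranges that overlap. At 60h it made up 94.5% to 95.5% in WT and 90.2% to 92.3% in CBP.

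**Figure D3:**
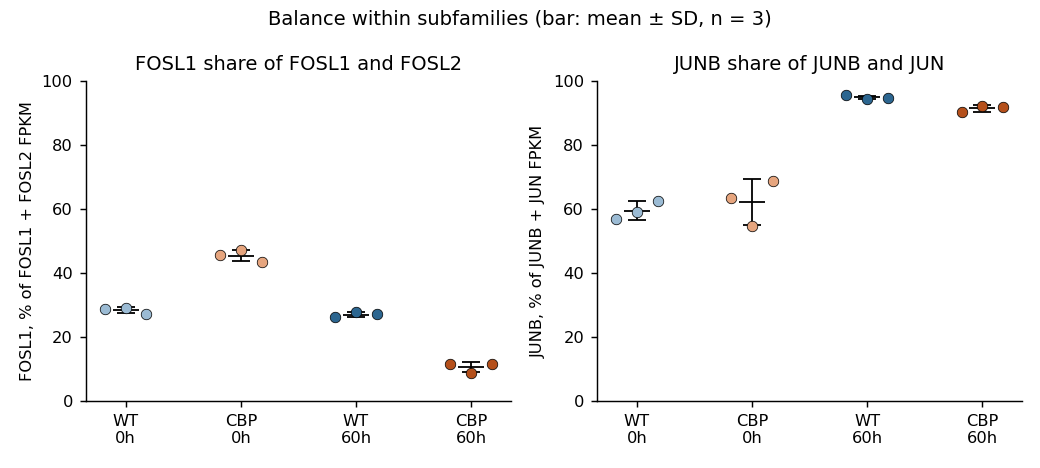
Share of FOSL1 in the summed FPKM of FOSL1 and FOSL2 (left) and of JUNB in that of JUNB and JUN (right), in percent, for the 3 libraries of each group with mean and SD. The FOSL1 share is 45.5% in CBP at 0h and 10.8% in CBP at 60h, against 28.4% and 27.1% in WT, and the JUNB share exceeds 90% in each of the 6 libraries at 60h.

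JUN (ENSSSCG00000031912, chromosome 6, 153686425 to 153687635), the partner that FOS proteins need and the target of the JNK kinases, was higher in CBP than in WT cells at 60h. At 0h it had 7.37, 8.38 and 6.47 FPKM in WT and 7.05, 7.35 and 6.33 FPKM in CBP. At 60h it had 6.11, 6.66 and 6.32 FPKM in WT and 11.4, 9.55 and 9.52 FPKM in CBP. The 3 CBP libraries at 60h were above the other 9 libraries, and the arms overlapped at 0h. JUN was 1.60-fold higher in CBP at 60h (log2 change 0.60, SE 0.087, adjusted p = 5.89e-05), and rose 1.47-fold with stage in CBP (log2 change 0.50, adjusted p = 0.000257). In WT the stage change did not pass (log2 change -0.19, SE 0.087, adjusted p = 0.0788), and passed as a fall only without WT replicate 3 at 0h (adjusted p = 0.0173, within 0.0173 to 0.31 over 18 alternatives). At 0h the arms did not differ by the test (log2 change -0.08, adjusted p = 0.42). JUN is counted over 1905 bp, more than its RefSeq span of 1211 bp.

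JUNB (ENSSSCG00000013735, chromosome 2, 66214086 to 66219435), a weaker activator than JUN that can oppose it, had a fold rise with stage in WT cells close to that of FOS, and at a far higher level. On the log2(FPKM + 1) scale JUNB changed by 3.35 there, against 2.39 for FOS. Its values at 0h were 9.70, 12.2 and 10.9 FPKM in WT and 12.2, 8.88 and 14.04 FPKM in CBP. At 60h they were 129, 115 and 116 FPKM in WT and 105, 115 and 107 FPKM in CBP. The stages were far apart, while the arms overlapped at 0h and were separated by less than 1 FPKM at 60h. JUNB rose 11.04-fold in WT (log2 change 3.35, SE 0.124, adjusted p = 4.00e-10), rank 10 of 11636 genes, and 9.33-fold in CBP (log2 change 3.14, SE 0.124, adjusted p = 3.83e-10), rank 30. Between arms it did not pass at 0h (log2 change 0.08, SE 0.124, adjusted p = 0.607), where the sign turned after median-of-ratios scaling (-0.05) and without CBP replicate 3 (-0.06), and a rise passed without CBP replicate 2 (0.25, adjusted p = 0.0295, within 0.0295 to 0.985 over 18 alternatives). At 60h it did not pass either (log2 change -0.14, SE 0.124, adjusted p = 0.338). There a fall passed in a fit of the compared groups alone (adjusted p = 0.0437) and with limma voom on recovered reads (0.0256), within 0.0256 to 0.608 over 18 alternatives.

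ATF3 (ENSSSCG00000015595, chromosome 9, 130772259 to 130829678), a stress-induced factor that often represses as a pair with itself, was lower in CBP cells at both stages. It stood at 6.40, 6.85 and 6.80 FPKM in WT and at 3.94, 3.63 and 4.33 FPKM in CBP at 0h. At 60h it stood at 8.51, 8.25 and 7.69 FPKM in WT and at 6.12, 6.24 and 5.70 FPKM in CBP. Every WT library was above every CBP library of the same stage. ATF3 was 1.68-fold lower in CBP at 0h (log2 change -0.63, SE 0.058, adjusted p = 2.00e-06) and 1.35-fold lower at 60h (log2 change -0.38, SE 0.058, adjusted p = 8.41e-05). It rose 1.22-fold with stage in WT (log2 change 0.25, adjusted p = 0.00226) and 1.52-fold in CBP (log2 change 0.50, adjusted p = 7.61e-06).

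BATF3 (ENSSSCG00000026587, chromosome 9, 130699092 to 130711719), a small factor without an activation domain, best known from dendritic cells, lies 60.5 kb from ATF3 and was the lowest member at 60h. Only 3 to 30 reads per library stood behind it. It had 0.546, 1.06 and 0.292 FPKM in WT and 1.06, 1.06 and 0.649 FPKM in CBP at 0h. At 60h it had 1.09, 1.16 and 0.645 FPKM in WT and 0.113, 0.258 and 0.183 FPKM in CBP. CBP at 60h was below every other library, while the remaining 3 groups overlapped. BATF3 was 5.23-fold lower in CBP at 60h (15 against 76 reads over 3 libraries, log2 change -0.72, SE 0.164, adjusted p = 0.00176, and -1.90 with a pseudocount of 0.1). It fell 5.01-fold with stage in CBP (log2 change -0.69, adjusted p = 0.00224). BATF3 passed the filter only through libraries of the other 3 groups. With no filter the adjusted p was 0.00527 at 60h and 0.00651 for stage in CBP. At 0h and for the stage change in WT it did not pass (adjusted p = 0.195 and 0.146), and both passed as a rise without WT replicate 2 at 0h (0.0241 and 0.0161, within ranges of 0.0241 to 0.615 and 0.0161 to 0.504 over 18 alternatives).

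Counted over the family, CBP against WT at 0h changed 3 of 8 members (FOSL1 higher, FOSL2 and ATF3 lower), while 62.3% of all genes tested were called in that comparison, 44.2% higher and 18.1% lower. The same contrast at 60h called 6 of 8 (FOS, FOSB and JUN higher, FOSL1, ATF3 and BATF3 lower), beside 71.6% of all genes (44.7% higher, 27.0% lower). Stage called 6 of 8 in WT (FOS, FOSB, JUNB and ATF3 higher, FOSL1 and FOSL2 lower) against 66.8% of all genes (28.8% higher, 38.0% lower). In CBP it called all 8 tested members (FOS, FOSB, JUN, JUNB and ATF3 higher, FOSL1, FOSL2 and BATF3 lower) against 72.7% (31.3% higher, 41.5% lower). Since most genes were called in each of these comparisons, and FOS, FOSB and BATF3 were tested only through their higher groups, the counts are not read as a property of the family. The median log2 change of the members was -0.08 at 0h and -0.05 at 60h for CBP against WT, beside 0.12 and 0.10 over all genes, and 0.27 and 0.50 for stage in WT and CBP, beside -0.05 and -0.06. Median-of-ratios scaling moved the median of all genes by -0.12 and -0.11 in the CBP comparisons, and turned the called shares into 25.4% higher and 26.9% lower at 0h and 33.5% higher and 35.7% lower at 60h. The changes of FOSL1 (0.52), FOSL2 (-0.54) and ATF3 (-0.74) at 0h passed after it, as did those of FOS (0.95), FOSB (0.46), JUN (0.48), FOSL1 (-1.60), ATF3 (-0.50) and BATF3 (-0.77) at 60h.

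**Figure D4:**
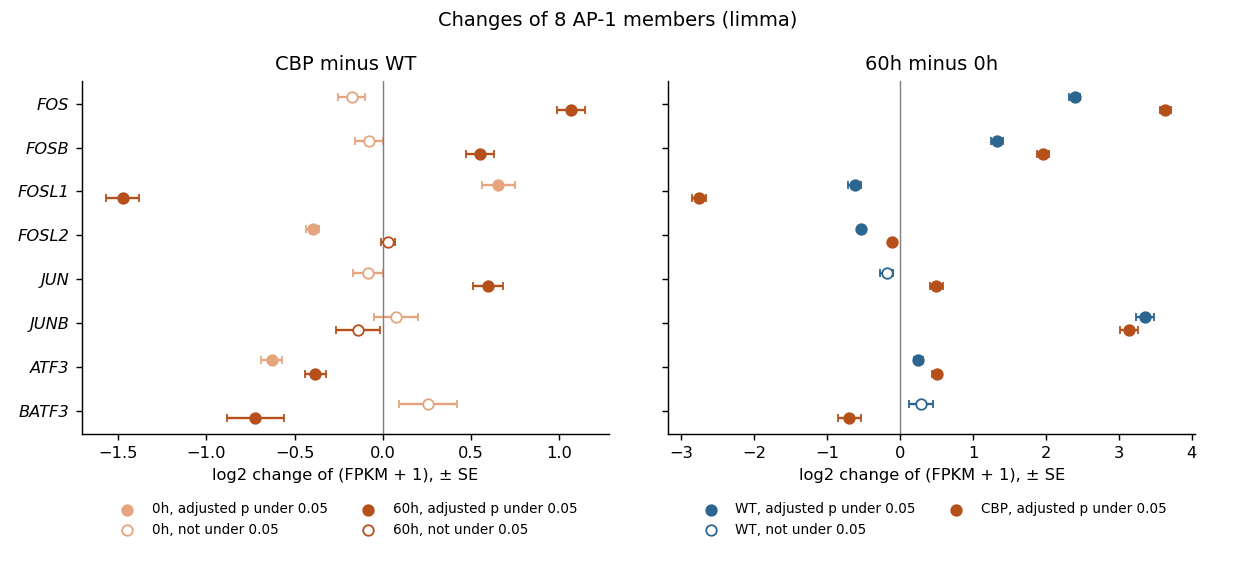
Log2 change of FPKM + 1 with its SE for each member, CBP minus WT at 0h and 60h (left) and 60h minus 0h in WT and CBP (right), with filled points where the limma adjusted p was under 0.05. FOSL1 lies right of 0 at 0h (0.65) and left at 60h (-1.48) in the left panel, and JUNB lies near 3 in both arms in the right panel.

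The difference between the CBP effects at the 2 stages was tested directly as the interaction, the effect at 60h minus that at 0h. It was called for 7 of 8 members, where 50.9% of all genes were called (24.3% higher, 26.7% lower). FOS had 1.25 (SE 0.111, adjusted p = 2.14e-06), JUN 0.68 (SE 0.123, adjusted p = 0.000646), FOSB 0.63 (SE 0.112, adjusted p = 0.000569) and FOSL2 0.43 (SE 0.055, adjusted p = 4.19e-05). FOSL1 had -2.13 (SE 0.132, adjusted p = 1.07e-07), and only 35 of the 11636 genes had a lower value. BATF3 had -0.98 (SE 0.232, adjusted p = 0.00393). FOS, FOSB and BATF3 entered the fit only through their higher groups, so their interaction values describe them rather than add support. Over 17 alternatives, the fit with no filter among them, their adjusted p reached at most 0.000118, 0.0203 and 0.0114. The count of 7 is not read as a property of the family either. For ATF3 the interaction was small (0.25, SE 0.082, adjusted p = 0.0246) and did not pass in 6 fits that left out 1 library: WT replicates 2 (adjusted p = 0.055) and 3 (0.0516) and CBP replicate 2 (0.0579) at 0h, and WT replicate 3 (0.0617) and CBP replicates 1 (0.051) and 2 (0.0561) at 60h, within 0.00397 to 0.0617 over 17 alternatives. JUNB did not pass (-0.22, SE 0.176, adjusted p = 0.331), except without CBP replicate 2 at 0h (-0.39, adjusted p = 0.0181, within 0.0181 to 0.675 over 17 alternatives).

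Among other basic leucine zipper factors that pair with AP-1 proteins or share their sites, 17 of 21 were tested. Of these, 3 were higher and 6 lower in CBP at 0h, and 6 were higher and 8 lower at 60h, with median log2 changes of 0.03 and -0.03 (2 and 8 at 0h and 6 and 10 at 60h after median-of-ratios scaling, with medians of -0.10 and -0.16). The share called was 52.9% at 0h and 82.4% at 60h, beside 62.3% and 71.6% of all genes. The small MAF proteins MAFF and MAFG, which have no activation domain, were lower at 0h, MAFF at 3.26 ± 0.247 against 6.86 ± 0.791 FPKM and MAFG at 21.2 ± 1.81 against 32.9 ± 2.05 FPKM. Both were lower at 60h too, MAFF at 9.97 ± 0.329 against 15.8 ± 0.714 FPKM and MAFG at 10.1 ± 0.580 against 20.003 ± 1.37 FPKM. JDP2, a repressor that pairs with JUN, was 1.97-fold higher in CBP at 60h (19.2 ± 1.59 against 9.77 ± 0.160 FPKM, adjusted p = 2.85e-08). CEBPD, a factor of acute responses, was 3.35-fold higher (71.4 ± 6.70 against 21.3 ± 6.03 FPKM, adjusted p = 2.47e-05). With stage, 6 rose and 4 fell in WT, and 10 rose and 5 fell in CBP (58.8% and 88.2% called, beside 66.8% and 72.7% of all genes). After median-of-ratios scaling 9 rose and 4 fell in WT. CREB5 fell in WT, from 6.65 ± 0.530 to 2.79 ± 0.249 FPKM. In the interaction 6 of the 17 were higher and 4 lower (58.8% called, beside 50.9% of all genes), among them MAF (1.12, SE 0.106) and ATF5 (-0.73, SE 0.097).

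Upstream of AP-1, 23 of 26 kinases and serum response factors were tested, and the direction of the list depended on scaling. At 0h, 13 were higher and 3 lower in CBP, which became 6 and 5 after median-of-ratios scaling. At 60h, 8 were higher and 6 lower, or 8 and 10 after that scaling. The share called was 69.6% at 0h and 60.9% at 60h, beside 62.3% and 71.6% of all genes. The ERK-activated kinase RPS6KA1 was 2.35-fold higher at 0h (6.72 ± 0.526 against 2.85 ± 0.282 FPKM) and 3.53-fold higher at 60h (5.24 ± 0.638 against 1.48 ± 0.151 FPKM, adjusted p = 4.02e-08). MRTFA, the actin-regulated partner of SRF, was 1.84-fold higher at 60h (9.45 ± 0.278 against 5.14 ± 0.233 FPKM). MAP3K1, a kinase above JNK, was 2.60-fold higher at 60h (1.73 ± 0.135 against 0.667 ± 0.0829 FPKM). Its mean exceeded 1 FPKM only in CBP at 60h, the group through which it passed the filter. The change of MAP3K1 therefore describes it rather than adds support. ELK3, a ternary complex factor on serum response elements, was lower at 60h (15.3 ± 0.593 against 23.9 ± 1.41 FPKM). With stage, 4 rose and 9 fell in WT and 6 rose and 12 fell in CBP (56.5% and 78.3% called, beside 66.8% and 72.7% of all genes), which became 5 and 7 in WT and 8 and 9 in CBP after scaling. The p38 kinase MAPK12 fell from 16.4 ± 0.593 to 6.92 ± 0.238 FPKM in WT and from 18.1 ± 0.848 to 4.37 ± 0.0756 FPKM in CBP.

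Of the 19 feedback and turnover genes, 17 were tested. In CBP against WT, 7 were higher and 4 lower at 0h and 8 higher and 6 lower at 60h (6 and 8 at both stages after median-of-ratios scaling). The share called was 64.7% at 0h and 82.4% at 60h, beside 62.3% and 71.6% of all genes. The ERK phosphatases, which are themselves induced by ERK signalling, had the largest rises at 60h: DUSP5 was 3.55-fold higher (22.0 ± 0.685 against 6.20 ± 0.424 FPKM, adjusted p = 1.50e-09), DUSP4 2.67-fold (14.4 ± 0.438 against 5.38 ± 0.0852 FPKM) and DUSP6 1.89-fold (29.3 ± 0.802 against 15.5 ± 1.17 FPKM). All 3 were higher at 0h as well, DUSP4 at 6.59 ± 0.149 against 4.29 ± 0.587 FPKM, DUSP5 1.93-fold and DUSP6 1.57-fold. DUSP1, a MAP kinase phosphatase named here after its values were seen, was lower in CBP at 0h (27.7 ± 1.25 against 42.1 ± 2.15 FPKM) and at 60h (43.3 ± 2.18 against 66.1 ± 3.11 FPKM). The JNK and p38 phosphatases DUSP8 and DUSP10 were lower at 0h, DUSP10 at 5.46 ± 0.286 against 12.7 ± 0.460 FPKM and DUSP8 at 3.53 ± 0.199 against 8.37 ± 0.480 FPKM. Both were lower at 60h too, DUSP10 at 4.23 ± 0.135 against 5.02 ± 0.482 FPKM and DUSP8 at 1.27 ± 0.0575 against 2.52 ± 0.772 FPKM. With stage in WT, 10 of the 17 rose and 6 fell (94.1% called, beside 66.8% of all genes), among them ZFP36, which promotes decay of AU-rich transcripts (from 4.71 ± 0.194 to 9.87 ± 0.367 FPKM). All 17 tested were called in CBP, where 72.7% of all genes were, 10 higher and 7 lower, among them the pseudokinase TRIB1, which rose from 1.83 ± 0.0381 to 7.61 ± 0.173 FPKM. DUSP10 (0.88, SE 0.083), DUSP5 (0.84, SE 0.105) and DUSP4 (0.74, SE 0.091) were among the 7 with a positive interaction, and 6 had a negative one (76.5% called, beside 50.9% of all genes). For DUSP10 the value stood for a smaller fall at 60h (log2 change -0.20) than at 0h (-1.08), and for DUSP5 and DUSP4 for a larger rise.

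Genes often described as AP-1 targets were looked at in a list of 30, which was not measured as bound or controlled by AP-1 in these cells. Of the 25 tested, 12 were higher and 9 lower in CBP at 0h (84.0% called, beside 62.3% of all genes). The median log2 change at 0h was -0.13, beside 0.12 over all genes (12 and 12, and -0.23, after median-of-ratios scaling). At 60h, 5 were higher and 18 lower (92.0% called, beside 71.6%), with a median log2 change of -0.75, beside 0.10 over all genes (5 and 20, and -0.81, after median-of-ratios scaling). In CBP against WT at 60h, the growth factor VEGFA stood at 26.7 ± 1.71 against 88.6 ± 13.0 FPKM. The cytokine IL6 stood at 0.440 ± 0.157 against 7.91 ± 0.836 FPKM and the chemokine CXCL8 at 0.260 ± 0.193 against 5.12 ± 0.811 FPKM. IL6 passed the filter only through WT libraries, and CXCL8 only through libraries outside CBP at 60h. The changes of IL6 and CXCL8, and the interaction of CXCL8, therefore describe these genes rather than add support. The list went the other way with stage in WT, where 16 rose and 8 fell with a median of 0.41, while in CBP 7 rose and 16 fell with a median of -0.45. The share called was 96.0% in WT and 92.0% in CBP, beside 66.8% and 72.7% of all genes. IL11, a cytokine of the IL6 family, rose in WT from 0.515 ± 0.163 to 8.98 ± 2.11 FPKM. In CBP it rose as well, from 2.26 ± 0.405 to 14.7 ± 0.251 FPKM, and it passed the filter only through libraries outside WT at 0h. NQO1 and GCLC, genes of the antioxidant response, fell in both arms, NQO1 from 72.8 ± 2.03 to 12.5 ± 0.679 FPKM in WT and from 93.4 ± 1.29 to 5.27 ± 0.473 FPKM in CBP. The row named MMP3 in the table, which the reference names MMP1, rose from 0.300 ± 0.0387 to 11.9 ± 0.879 FPKM in WT. In CBP it rose from 0.108 ± 0.0788 to 17.2 ± 2.54 FPKM, and it passed the filter only through the 60h libraries. IL11 and this row were among the 5 genes higher in CBP at 60h (log2 changes 0.68 and 0.48). The interaction was negative for 16 of the 25 and positive for 2 (72.0% called, beside 50.9% of all genes), among them CXCL8 (-2.15, SE 0.178), NQO1 (-1.46, SE 0.073) and CCL2 (-1.35, SE 0.078).

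**Figure D5:**
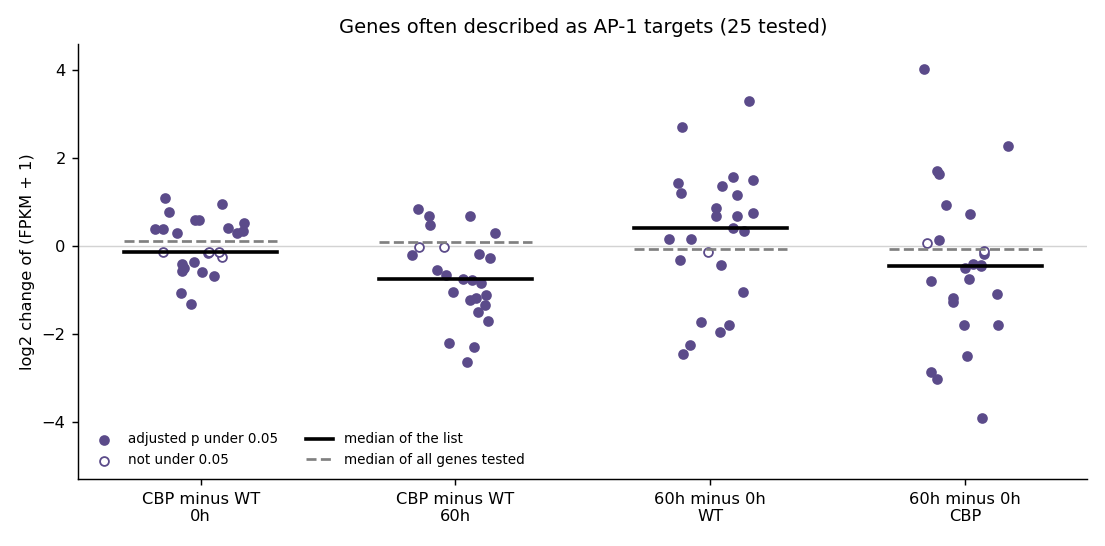
Log2 change of FPKM + 1 for each of the 25 tested genes often described as AP-1 targets (points, filled where the limma adjusted p was under 0.05) in 4 comparisons, with the median of the list (solid line) and of all genes tested (dashed line). For CBP minus WT the list median is -0.13 at 0h and -0.75 at 60h, and for stage it is 0.41 in WT and -0.45 in CBP.

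The genes most like each member were ranked by Pearson's r of log2(FPKM + 1) over the 12 libraries among 7078 named genes with a mean of 5 FPKM or more. The 12 points share 4 groups and their libraries, so r mainly describes the pattern of group means. FOS was most like MAGED1 (r = 0.998), PDIA6 (0.997) and PCOLCE (0.997), and FOSB like PDIA6 (0.994), FOS (0.994) and PCOLCE (0.993). FOSL1 was most like EHD3 (0.996), EMG1 (0.994) and GSTO1 (0.993), where EHD3 stood at 23.99 and 36.2 FPKM in WT and CBP at 0h and at 17.0 and 6.10 FPKM at 60h. FOSL2 was closest to ANK3 (0.985), DGKD (0.973) and NAA30 (0.972), and JUN to APPBP2 (0.951), NIT2 (0.936) and RNF216 (0.926). JUNB was closest to SFRP1, CTHRC1 and VDR (each 0.996), which lay near 1 FPKM at 0h and between 9.76 and 21.7 FPKM at 60h. ATF3 was most like MYL1 (0.985), C1QTNF3 (0.984) and LOX (0.983), with MYL1, a fast muscle myosin light chain, at 24.2 and 1.92 FPKM in WT and CBP at 0h and at 59.7 and 14.3 FPKM at 60h. BATF3 had the loosest matches, PLPP3 (0.892), TMED5 (0.880) and PES1 (0.877).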

How the data were processed

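The authors deposited 1 table of FPKM values per gene and library, with replicates not pooled. The submitters' processing notes name Trimmomatic, a read trimmer, featureCounts, a read counter, and the build Sscrofa11.1. For the aligner, the annotation and the use of strand, these sources give nothing, so reads of overlapping or antisense genes cannot be told apart. None of the members' RefSeq spans overlaps another RefSeq gene. FOS and JUN were counted over more bases than these spans hold, so for them the check does not cover the whole counted region.

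In each library, the deposited FPKM of a gene steps by what 1 read adds. Whole reads, library totals and gene lengths were recovered for 22521 of 22521 genes above 0, within a tolerance of 0.001 reads. They gave depth and 1 alternative.

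Log2(FPKM + 1) was fitted with limma 3.58.1 in R 4.3.3: 4 group means over 12 libraries, trended empirical Bayes, two-sided tests, Benjamini-Hochberg adjustment over 11636 genes in each of 5 comparisons. Genes were called where the adjusted p was under 0.05. Folds are ratios of mean FPKM. Comparisons share groups and are not independent.

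The members and lists were chosen with earlier results of these data known. Every member is named. From each other list and comparison, at most 4 called genes with the largest change could be named, and for each member the 3 most alike genes. One gene of the target list that the rule names is not reported here. No sequence is shown. Alternatives were a pseudocount of 0.1, no filter, median-of-ratios scaling, a replicate block, a fit of only the groups compared, limma voom on recovered reads, and leaving out each library.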

Additional observations from a re-analysis of the deposited data

Results flagged for a closer look

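For 7 of the 8 members, the effect of CBP against WT differed between 60h and 0h by the limma interaction test. The difference in log2 change was -2.13 for FOSL1, which was called higher in CBP at 0h and lower at 60h. It was -0.98 for BATF3, on 3 to 30 reads per library. It was 1.25 for FOS, 0.68 for JUN, 0.63 for FOSB, 0.43 for FOSL2 and 0.25 for ATF3, the last of which did not pass in 6 of the 12 fits that left out 1 library. In this comparison 50.9% of all genes tested were called, and FOS, FOSB and BATF3 were tested only through their higher groups. The estimates of FOS, FOSB, JUN, FOSL2 and BATF3 also differed in sign between the stages, but none of these genes was called at both.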

How the results depend on the processing

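The number of members called stayed within 1.5 times its value under every alternative run. Leaving out 1 library in turn gave 3 to 4 members for CBP against WT at 0h, 6 to 6 at 60h, 6 to 7 for stage in WT, 7 to 8 for stage in CBP and 6 to 7 for the interaction. The other alternatives gave 3 to 4, 6 to 7, 6 to 6, 7 to 8 and 7 to 7. Of 712 single-member values under an alternative, 690 kept their direction and side of the threshold, 10 newly passed, 9 no longer passed and 3 changed sign. Those 3 were JUNB at 0h after median-of-ratios scaling (-0.0497) and without CBP replicate 3 (-0.0554, within -0.0554 to 0.248 over the fits that left out 1 library), and FOSL2 at 60h after median-of-ratios scaling (-0.10). The fit with the replicate number as a block called 3, 6, 6, 8 and 7 members, the counts of the fit without it. No shared effect of the replicate number was seen: deviations from group means correlated at -0.0935 to 0.082 over 18 same-numbered pairs. This cannot exclude that same-numbered libraries shared a culture or batch, which the labels do not give. Log2 changes of FOS, FOSB and BATF3 grow with a smaller pseudocount, since these genes are low in some groups. For BATF3, 3 to 30 reads per library limit the precision. Subfamily sums moved by more than 1 SD in 5 of 64 cases, all after median-of-ratios scaling.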
